A study of Mus musculus with 20 samples.

Results

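The thymus pair set a library from a mouse thymus taken after dehydroepiandrosterone (DHEA), a steroid precursor that tissues turn into androgens and oestrogens, against a library from a thymus given the sesame oil control (written "sasame oil" in the labels). Its members are these 2 of the 20 samples of the series, which holds 10 mouse tissues with 1 oil and 1 DHEA library each. All animals are labelled WT, and the sources used here do not give the dose, route, duration, age, strain, sex or the number of animals behind a library. The sample descriptions carry the words 10x Genomics, whereas the series describes bulk RNA sequencing of homogenised tissue, and the files hold 1 column a tissue and treatment. With 1 library a side there is no replicate, so no p-value is given, and a difference compares these 2 libraries and not the treatments. Levels are FPKM (reads scaled by the length of the gene and by the size of the library), and the difference used throughout is log2((DHEA + 1)/(control + 1)), in which the 1 FPKM added understates the change of low genes.

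The thymus is where T cells mature. Precursors without CD4 and CD8 (double-negative) start to rearrange their receptor genes, pass through a cortical stage carrying both CD4 and CD8 (double-positive), in which Rag1 and Rag2 cut the receptor genes, are selected on epithelial cells, and leave as single-positive CD4 or CD8 cells. Cortical epithelium carries out positive selection, and medullary epithelium, with the regulator Aire, displays the proteins of other organs to remove self-reactive cells. Sex steroids and glucocorticoids are known to shrink the cortex, and fat replaces thymic tissue with age. The gland lies in the upper chest beside fat, heart, lymph nodes and pleura, and mice often carry parathyroid tissue in or on it.

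Recovered read totals were 19306823 for the control thymus and 17521114 for the DHEA thymus, and the 20 libraries ranged from 13206931 to 20704391. Both thymus libraries carried the defining transcripts of the labelled tissue. Rag1 stood at 729 FPKM in the control and 622 FPKM in the DHEA library, and no other library of the series had more than 43 reads of it. The summed level of the 18 double-positive thymocyte genes was 4587 FPKM in the control and 4384 FPKM in the DHEA library, and lay between 66.1 and 276 FPKM in the 18 libraries of other tissues.

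Of 24769 symbols that occur once in the table, 7727 had a mean of at least 5 FPKM over the pair. Of these, 91 were at least 2-fold higher in the DHEA library (1.18%) and 11 at least 2-fold lower (0.142%), 102 in all (1.32%). A gene under 5 FPKM in 1 library passed this filter only if the other library held more, so such genes were selected for differing. The median difference was 0.02 on the log2 scale with an SD of 0.32 across genes, and 54.1% of genes lay above 0. The 91 higher genes held 31 immunoglobulin gene segments, 3 T cell receptor segments, 10 other genes shorter than 200 bases and 47 other genes, of which 18 belong to the adipocyte lists. Setting aside segments and short genes left 47 higher and 2 lower genes of 7523. For 87 of the 91 higher genes the 95% interval of the fold, which covers counting error only, lay above 1, and for 7 of the 11 lower genes it lay below 1. With 5 FPKM added in place of 1 the counts were 57 and 6, and with a filter at 10 FPKM 52 and 3. The members just past 2-fold were Ccl17 (3.38 and 7.77 FPKM), Prkar2b (7.42 and 15.9 FPKM) and the segment Ighv1-64 (5.43 and 11.9 FPKM), and those just short of it were Cd300lg (4.26 and 9.41 FPKM), Trav6-3 (5.995 and 12.8 FPKM) and, on the lower side, Igkv8-21 (16.1 and 7.66 FPKM).

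**Figure D1:**
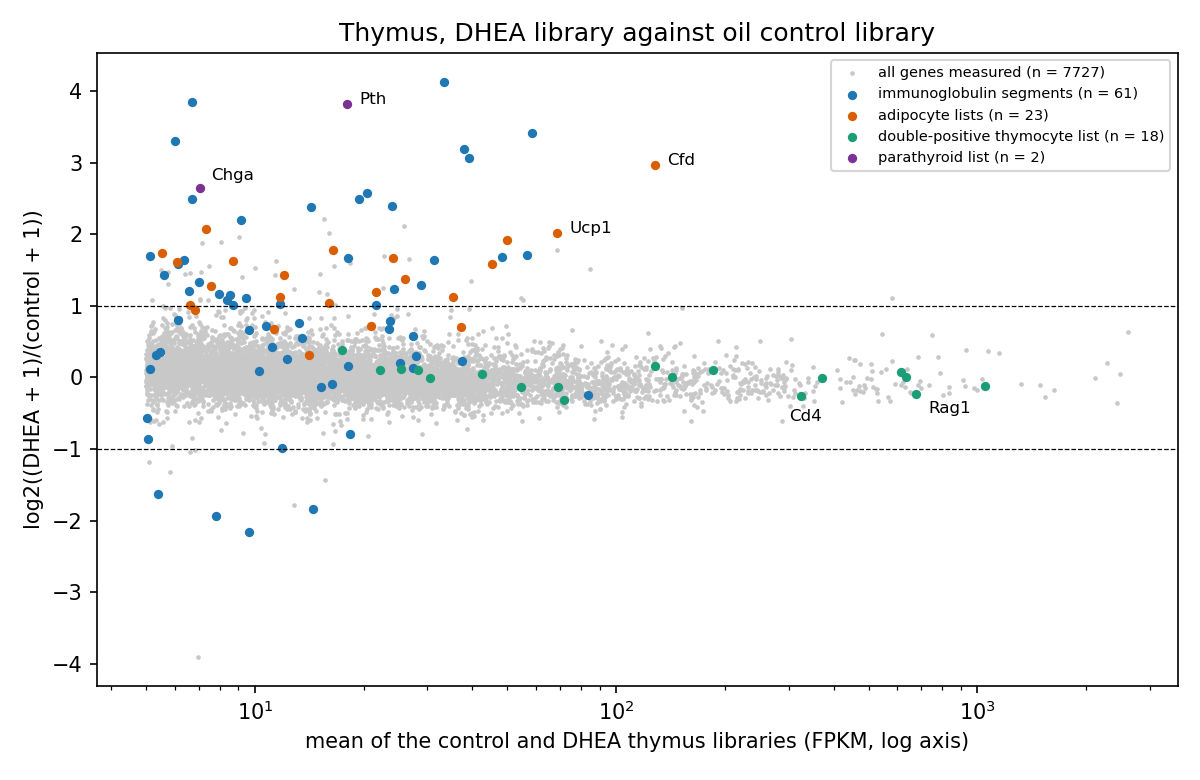
Each point is a gene with a mean of at least 5 FPKM over the pair; the horizontal axis is that mean in FPKM (log axis) and the vertical axis the log2 difference, DHEA against control, with dashed lines at 2-fold. Double-positive thymocyte genes lie between -0.31 and 0.38, whereas Pth, Chga, Cfd, Ucp1 and many immunoglobulin segments lie above the upper line.

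The sequences before the starts of Pth, Cfd and Ucp1 are printed because these genes carried the largest differences of the parathyroid, white adipocyte and, by level, brown adipocyte lists. Pth encodes parathyroid hormone, Cfd encodes adipsin (complement factor D, secreted by fat), and Ucp1 encodes the uncoupling protein that makes heat in brown and beige adipocytes. Each is the 250 bases before the RefSeq start on GRCm38.p6, written 5′ to 3′ on the strand of the gene. Capitals mark TATAAA, the core of a TATA box, and AGGTCA, the half-site of many nuclear receptors, each searched on both strands; the marked sites do not overlap.
Pth, chr7:113388574-113388823, minus strand: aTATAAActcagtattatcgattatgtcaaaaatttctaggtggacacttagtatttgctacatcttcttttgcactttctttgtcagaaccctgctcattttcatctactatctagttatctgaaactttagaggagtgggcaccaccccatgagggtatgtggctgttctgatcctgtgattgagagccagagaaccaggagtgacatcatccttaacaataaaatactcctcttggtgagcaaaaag
Cfd, chr10:79890603-79890852, plus strand: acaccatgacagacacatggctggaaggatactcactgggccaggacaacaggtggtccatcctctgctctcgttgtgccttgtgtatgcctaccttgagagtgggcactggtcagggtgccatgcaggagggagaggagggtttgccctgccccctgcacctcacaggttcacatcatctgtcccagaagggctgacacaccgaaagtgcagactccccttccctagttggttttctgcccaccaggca
Ucp1, chr8:83290098-83290347, plus strand: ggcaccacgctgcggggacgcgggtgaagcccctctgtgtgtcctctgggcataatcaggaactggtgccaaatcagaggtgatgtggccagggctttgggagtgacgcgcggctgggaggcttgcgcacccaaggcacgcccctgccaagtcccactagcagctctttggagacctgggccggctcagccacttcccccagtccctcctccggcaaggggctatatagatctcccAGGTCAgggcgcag
TATAAA lies 249 bases before the Pth start and AGGTCA 14 bases before the Ucp1 start, and neither word occurs in the Cfd stretch. Of 32851 such stretches, 12.4% hold TATAAA and 14% hold AGGTCA. Of the 47 higher genes that are neither segments nor short, 34 had a stretch in the table, and 5 held TATAAA and 5 held AGGTCA (14.7% each). These 34 were counted per gene, by a match in any stretch of the gene, whereas the 32851 were counted per stretch. A match is a description of letters and not of a bound site.

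The thymocyte genes differed little between the libraries. None of the 18 double-positive genes passed 2-fold (18 of 18 measured), and their median was 0.01, with a sign that turned with the scaling of the libraries (-0.01 to 0.08). Over all genes measured 1.32% passed 2-fold, so a count of 0 here and in the lists below lies near that share. Rag1, the recombinase subunit, stood at 729 FPKM in the control and 622 FPKM in the DHEA library. The co-receptor gene Cd4 stood at 355 and 296 FPKM. Both were lower with DHEA by more than counting error, with folds of 0.854 (0.846 to 0.862) and 0.835 (0.820 to 0.850), and far from the 2-fold line. Cd8a was 630 and 636 FPKM and Cd8b1 1094 and 1005 FPKM, so the CD8 genes lay closer together than Cd4. Dntt, which adds random bases at receptor joints, stood at 598 and 631 FPKM, and Rag2, the partner of Rag1, at 41.8 and 43.2 FPKM. The largest differences in the list were those of Themis, a T cell signalling adaptor (14.96 and 19.8 FPKM, 0.38 on the log2 scale), and of Plxnd1, a guidance receptor of cortical thymocytes (79.4 and 63.8 FPKM, -0.31). In bulk tissue, fewer cells of a type and less RNA per cell cannot be told apart.

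No measured gene of the stages before and after the double-positive one passed 2-fold. Of the double-negative genes 8 were measured and none passed 2-fold, with a median of -0.04 whose sign turned with scaling. Ptcra, the surrogate receptor chain of early thymocytes, stood at 34.9 and 29.0 FPKM, Notch1 at 16.6 and 13.7 FPKM, Il2ra at 14.6 and 14.7 FPKM and Cd44 at 10.3 and 10.8 FPKM. The mature single-positive list had 14 genes measured, none past 2-fold, and a median of -0.06 that turned to 0.01 when the ratios were centred on the T cell receptor genes. The adhesion gene Cd2 stood at 137 and 121 FPKM and the GTPase genes Gimap6 and Gimap4 at 102 and 125 FPKM and at 39.8 and 38.7 FPKM. The homing receptor gene Ccr7 stood at 42.8 and 37.0 FPKM, the egress receptor gene S1pr1 at 14.3 and 14.6 FPKM and Klf2, which drives it, at 29.9 and 27.5 FPKM. Slfn1 lay farthest from 0 in the list, at 21.5 and 13.1 FPKM (-0.67). None of 5 regulatory T cell genes measured passed 2-fold (median 0.05), with the interleukin-2 receptor gene Il2rb at 16.3 and 13.9 FPKM. Foxp3, which defines these cells, had 52 and 55 reads, and Ctla4, an inhibitory receptor, stood at 3.29 and 5.96 FPKM.

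Genes induced by receptor signals during positive selection mostly lay below 0. Of 13 genes, 10 were lower in the DHEA library, whereas 54.1% of all measured genes lay above 0, and the median was -0.26 (-0.28 to -0.19 over the scalings); none of 12 measured passed 2-fold. Cd5, a negative regulator of receptor signals, stood at 54.3 and 50.7 FPKM, Nab2 at 21.2 and 14.7 FPKM (-0.50), Id3 at 83.1 and 62.4 FPKM, the orphan receptor gene Nr4a1 at 30.2 and 24.2 FPKM and Egr2 at 11.5 and 8.56 FPKM. Cd69, an early activation marker, went the other way at 3.53 and 4.36 FPKM, as did Itm2a (106 and 112 FPKM) and Tox (17.9 and 19.3 FPKM). The T cell receptor complex and signalling list had 0 of 16 genes past 2-fold and a median of -0.07. Its most abundant member, the constant gene Trbc2, stood at 2124 and 2446 FPKM, the transcription factor gene Tcf7 at 1687 and 1391 FPKM, the kinase gene Lck at 612 and 572 FPKM and Cd3d at 282 and 276 FPKM. The repair and recombination genes other than Rag1 all lay above 0 (9 of 10, median 0.20), among them the Ku subunits Xrcc6 at 91.8 and 110.4 FPKM and Xrcc5 at 13.6 and 17.7 FPKM; none of 7 measured passed 2-fold.

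Genes of dividing cells were slightly lower in the DHEA library. Of 20 cell cycle genes 19 lay below 0, with a median of -0.23 (-0.25 to -0.15 over the scalings), and 0 of 19 measured passed 2-fold. The mitotic kinase gene Plk1 stood at 50.6 and 34.9 FPKM (-0.52), the topoisomerase gene Top2a at 54.6 and 43.5 FPKM and Mki67 at 14.9 and 11.3 FPKM, whereas Pcna was 149 and 147 FPKM. The interferon list had 11 of 14 genes below 0 (median -0.29, 0 of 9 measured past 2-fold), with Isg15 at 51.7 and 33.8 FPKM. Survival and apoptosis genes had 0 of 15 past 2-fold and a median of -0.02 whose sign turned with scaling.

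**Figure D2:**
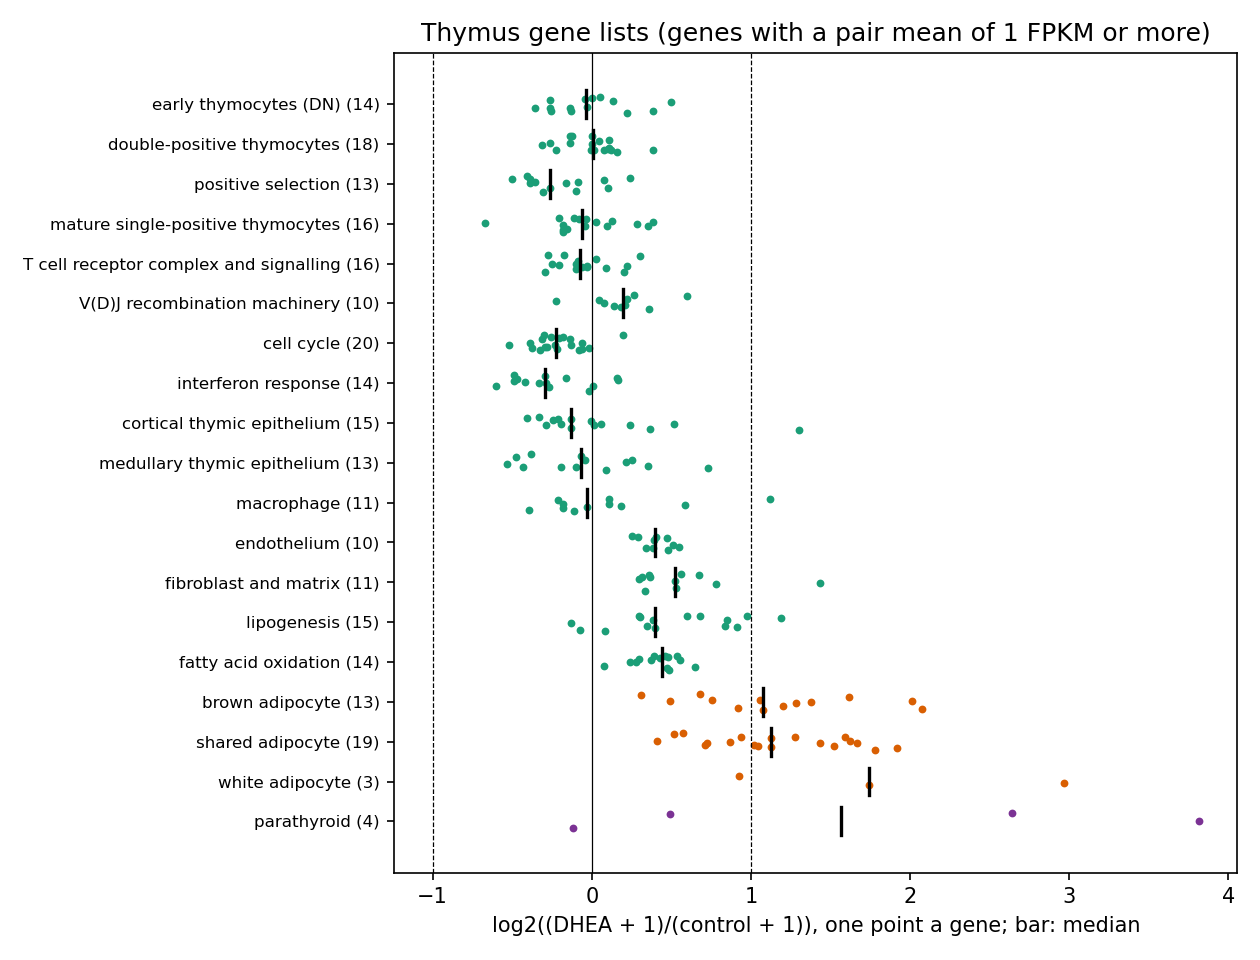
Each point is a gene whose mean over the pair is 1 FPKM or more, placed by its log2 difference, DHEA against control; the black bar is the list median, the number in brackets how many genes the list shows, and the dashed lines mark 2-fold. The thymocyte and epithelial medians lie between -0.26 and 0.20, and the shared, brown and white adipocyte medians at 1.12, 1.08 and 1.74.

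Of the thymic epithelial genes that passed the 5 FPKM filter, all but Ackr4 lay within 2-fold. Of 14 cortical genes measured 1 was higher (Ackr4) and 0 lower, with a median of -0.13 (-0.15 to -0.06 over the scalings). Ackr4, a scavenging receptor for the chemokines that bind Ccr7, stood at 2.89 and 8.58 FPKM, a 2.97-fold difference (2.60 to 3.40); with 5 FPKM added in place of 1 it fell short of 2-fold (0.78). The cortical proteasome subunit gene Psmb11 stood at 36.4 and 27.2 FPKM (-0.41), the protease genes Prss16 and Ctsl at 243 and 222 FPKM and at 261 and 260 FPKM, and the keratin genes Krt8 and Krt18 at 230.1 and 183 FPKM and at 335 and 289 FPKM. Foxn1, the master regulator of thymic epithelium, went the other way at 11.4 and 15.04 FPKM (0.37), as did the cytokine gene Il7 at 1.96 and 3.24 FPKM.

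Of 7 medullary genes measured none passed 2-fold, and the median of -0.07 turned to 0.00 on centring on the T cell receptor genes. Aire stood at 4.20 and 4.04 FPKM. Fezf2, which also drives tissue-restricted antigens, stood at 5.83 and 3.71 FPKM (-0.53), and Trp63, needed for epithelial progenitors, at 5.91 and 10.5 FPKM (0.73). Krt17, the most abundant of the list, stood at 121 and 86.7 FPKM, and Krt5 and Krt14 stood at 73.1 and 69.7 FPKM and at 21.2 and 25.4 FPKM. Ccl21a, the medullary chemokine gene, had 0 reads in the control and 25 in the DHEA library, at least 9.17-fold higher against a floor of 3 reads; near-identical copies of this gene exist, and the sources used here do not say how the authors shared reads among them.

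Adipocyte genes made up 18 of the 47 higher genes that are neither segments nor short. In the shared adipocyte list 11 of 14 measured genes passed 2-fold, all higher, against 1.18% of all genes, and all 19 listed genes, each with a mean of 1 FPKM or more, lay above 0 (median 1.12, against 0.02 over all genes measured). Their share of reads was 0.0599% in the control and 0.156% in the DHEA library. The list was chosen with earlier results of these data known, so its direction is no independent evidence. The carbonic anhydrase gene Car3 stood at 20.2 and 79.2 FPKM, a 3.91-fold difference (3.66 to 4.18). Fabp4, the fatty acid carrier of adipocytes, stood at 22.1 and 68.4 FPKM (3.10-fold). Adipoq, which encodes adiponectin, stood at 11.0 and 37.2 FPKM (3.37-fold). The lipid droplet genes Cidec and Plin1 stood at 6.89 and 26.0 FPKM and at 3.75 and 13.6 FPKM. Both droplet genes were thus over 3-fold higher in the DHEA library.

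The other shared genes were higher in the DHEA library too. Cd36, a fatty acid transporter, stood at 6.07 and 18.1 FPKM, Acsl1, which activates fatty acids, at 4.001 and 11.1 FPKM, and the lipoprotein lipase gene Lpl at 4.03 and 9.19 FPKM. Gpd1 and Dgat2, of glycerolipid synthesis, stood at 21.9 and 48.9 FPKM and at 10.2 and 21.99 FPKM, and G0s2, an inhibitor of lipolysis, at 6.99 and 16.5 FPKM. Pnpla2 and Lipe, the lipases that break down stored fat, stood at 27.9 and 46.4 FPKM and at 4.37 and 9.29 FPKM, and the adipocyte regulators Cebpa and Pparg at 15.5 and 26.3 FPKM and at 1.96 and 2.93 FPKM. None of these 4 passed 2-fold on the scale with 1 FPKM added, though each was higher in the DHEA library. Of the shared genes past 2-fold, Plin1, Acsl1 and Lpl stood under 5 FPKM in the control. They passed the 5 FPKM filter only through the DHEA library. The 4 listed genes not yet named lay under 5 FPKM: Plin4 had 116 and 515 reads, Aqp7 90 and 191, Trarg1 156 and 240 and Mrap 102 and 145.

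Measured genes of both the white and the brown adipocyte lists were higher, though not all passed 2-fold. Cfd, the adipsin gene, stood at 28.3 FPKM (510 reads) in the control and 228 FPKM (3733 reads) in the DHEA library, an 8.05-fold difference (7.34 to 8.85). Retn, the resistin gene, stood at 2.01 and 9.05 FPKM (4.51-fold, 3.40 to 6.05). These were the 2 white adipocyte genes measured. The leptin gene Lep had 6 and 34 reads, Nnat 22 and 67, Slc7a10 9 and 45, Agt 15 and 35 and Tcf21 4 and 13, while the Hox genes of the list had 0 to 5 reads in either library. Of 7 brown adipocyte genes measured 5 were higher and 0 lower, whereas 1.18% of all genes measured were higher. The median of 13 genes was 1.08, which came to 0.51 with 5 FPKM added in place of 1 and to 0.49 over all 23 genes. The brown genes Pdk4 and Fabp3, and Retn of the white list, stood under 5 FPKM in the control. They passed the 5 FPKM filter only through the DHEA library.

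Ucp1 stood at 26.5 FPKM (849 reads) in the control and 110.2 FPKM (3204 reads) in the DHEA library, a 4.15-fold difference (3.85 to 4.48). Cidea and Cox8b, a droplet protein gene and a respiratory subunit gene of brown fat, stood at 12.7 and 30.5 FPKM and at 14.1 and 38.1 FPKM. Pdk4, which spares glucose by blocking pyruvate dehydrogenase, stood at 2.20 and 12.5 FPKM, and Fabp3 at 2.49 and 9.71 FPKM. Ucp1 and Cidea were thus already above 10 FPKM in the control thymus. Among regulators of brown fat, Prdm16 had 139 and 114 reads, with a counting interval of the fold that spans 1 (0.698 to 1.16), and Ebf2 had 32 and 48, 1.65-fold higher (1.03 to 2.67). Ppara had 26 and 47 reads (1.99-fold, 1.21 to 3.34), while Ppargc1a had 15 and 8, Zic1 2 and 0 and Lhx8 4 and 2, too few to place. Letmd1 (12.5 and 15.7 FPKM) and Cox7a1 (8.41 and 14.1 FPKM) did not pass 2-fold. Of the genes under 5 FPKM, the adrenergic receptor gene Adrb3 had 51 and 199 reads, Plin5 24 and 87, Kcnk3 78 and 224, Otop1 54 and 125, Elovl3 37 and 95, Dio2 49 and 95, Acot11 133 and 214, Slc27a2 41 and 57, S100b 17 and 18 and Cpt1b 8 and 13.

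**Figure D3:**
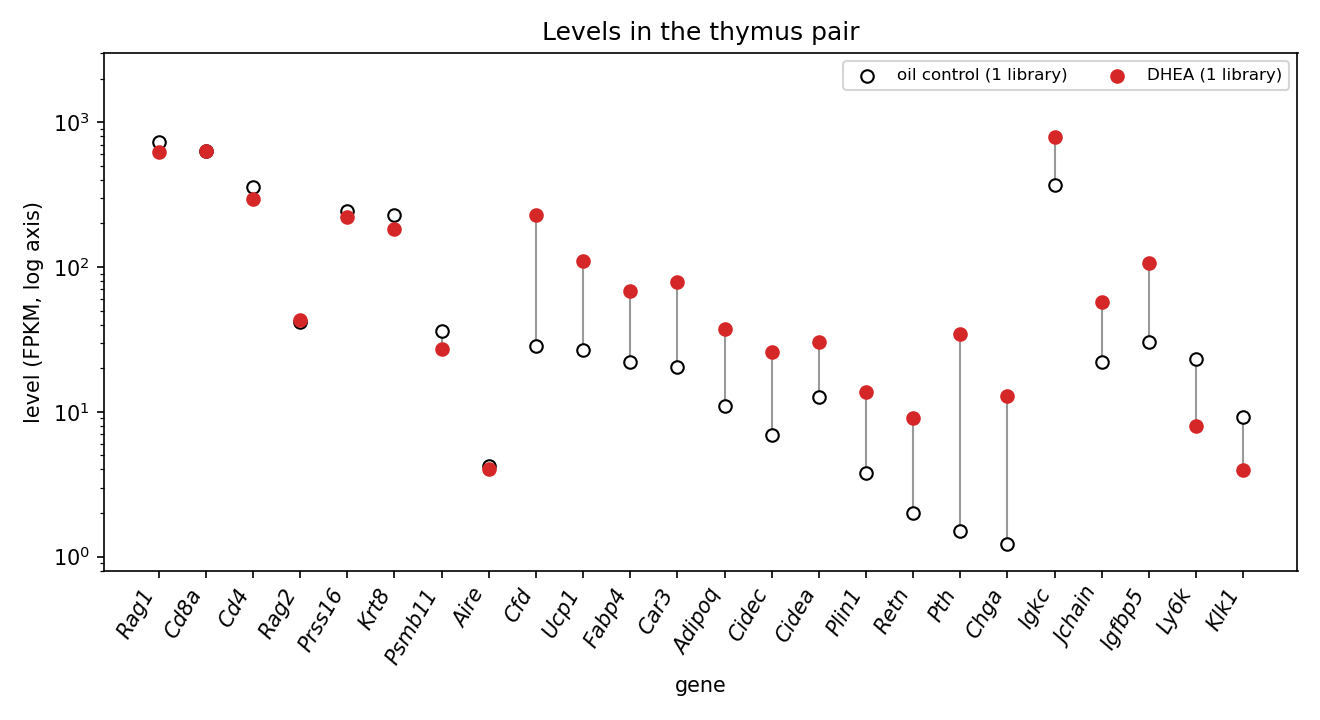
The level of 24 named genes in FPKM (log axis) in the control (open) and DHEA (filled) thymus libraries, 1 library each. The thymocyte and epithelial genes at the left lie close together, whereas Cfd goes from 28.3 to 228 FPKM and Pth from 1.51 to 34.4 FPKM.

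Pathways that adipocytes use, but that other cells share, moved less. Fatty acid oxidation had 0 of 14 genes past 2-fold, yet 14 of 14 lay above 0, with a median of 0.44; Acadl stood at 39.0 and 57.9 FPKM and Acaa2 at 84.8 and 100.4 FPKM. Lipogenesis had 1 of 14 measured genes higher (Agpat2, of phosphatidic acid synthesis, 8.77 and 21.2 FPKM), and 13 of 15 lay above 0 (median 0.40). The desaturase gene Scd1 lay just short of 2-fold at 102 and 202 FPKM, while the fatty acid synthase gene Fasn stood at 43.6 and 54.0 FPKM and Acly at 75.6 and 71.8 FPKM. The 12 mitochondrially encoded genes had a median of 0.33, none past 2-fold, with COX1 at 2053 and 3186 FPKM. Among genes with a pair mean of 1 FPKM or more, 10 of 10 endothelial genes (median 0.40, Pecam1 35.3 and 42.2 FPKM) and 11 of 11 fibroblast and matrix genes (median 0.52) lay above 0, as did 4 of 6 smooth muscle and pericyte genes (median 0.27). Of the fibroblast genes Dcn, a collagen-binding proteoglycan gene, passed 2-fold at 5.68 and 17.0 FPKM. These stromal genes were mostly higher along with the adipocyte genes, and their part in the result was not tested. Macrophage genes had 0 of 8 past 2-fold and a median of -0.03 whose sign turned with scaling, with Cd163 at 1.86 and 5.21 FPKM.

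Among the other 9 tissue pairs the shared adipocyte median ranged from -1.95 to 0.35, so the thymus value of 1.12 was the highest of the 10 pairs. Adipoq stood at 174.6 and 24.1 FPKM in uterus and at 19.3 and 18.0 FPKM in ovary, against 11.0 and 37.2 FPKM in thymus. Cfd in uterus stood at 776.5 FPKM in the control and 121.8 FPKM in the DHEA library, so there the control held more of it. In kidney the DHEA library held more Cfd, at 9.95 and 25.15 FPKM. Adipoq (1.80 and 3.29 FPKM) and Cidea (0.198 and 2.80 FPKM) were higher there too, while the shared adipocyte median in kidney was 0.20. Ucp1 reads were at most 2 in every other library except kidney, with 4 and 72 reads, and uterus, with 0 and 24 reads. The thymus pair thus held the highest Ucp1 levels of the series.

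**Figure D4:**
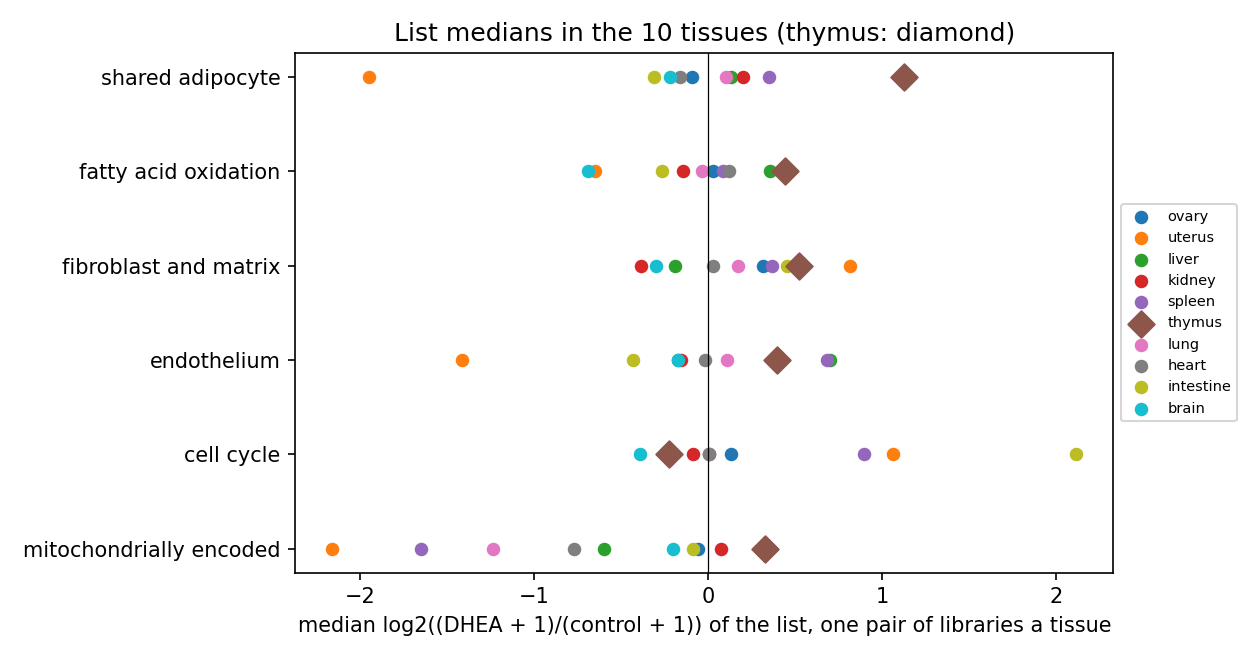
Median log2 difference, DHEA against control, of 6 gene lists in the 10 tissues, 1 pair of libraries a tissue, with the thymus as a diamond. The thymus lies at the right for the shared adipocyte (1.12) and mitochondrially encoded (0.33) lists and left of 0 for the cell cycle list (-0.23).

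Transcripts of neighbouring glands split by gene. Pth had 21 reads (1.51 FPKM) in the control thymus and 434 reads (34.4 FPKM) in the DHEA thymus, a 22.7-fold difference (14.7 to 37.1), and at most 2 reads in each of the other 18 libraries. Chga, a granule protein gene of endocrine cells, stood at 1.23 and 12.9 FPKM (66 and 631 reads), a 10.5-fold difference (8.15 to 13.8). These were the 2 parathyroid genes measured, and both were higher. Both stood under 5 FPKM in the control and passed the 5 FPKM filter only through the DHEA library. The filter thus favoured genes higher there, and the count of 2 is no independent evidence. Of the members below 5 FPKM, Casr, the calcium-sensing receptor gene, had 26 and 26 reads, Gcm2, the regulator that specifies the gland, 5 and 8, Chgb 4 and 8, Eya1 166 and 269 and Vdr 268 and 216, and Tbx1 had none in either library. Kl, the klotho gene, had 3 and 28 reads, a 10.3-fold difference with a wide interval (3.17 to 52.8). At 5 and 8 reads Gcm2 was too low to compare with Pth, and the interval of its fold, 0.508 to 6.84, spans 1. In spleen Gcm2 had 24 and 23 reads, where Pth had 0 and 0.

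Thyroid transcripts were near the floor in both libraries. Tg, the thyroglobulin gene, had 45 and 41 reads, Slc5a5 had 13 and 14, Duox2 15 and 13, Pax8 3 and 4, Nkx2-1 2 and 1, Slc26a4 3 and 5, Iyd 12 and 3, Slc26a7 1 and 0, Foxe1 0 and 2 and Duoxa2 0 and 2. Tshr, which adipocytes also express, had 6 and 30 reads, and Calca, the calcitonin gene, 30 and 14. Dio1, a deiodinase gene, was the only member measured, at 8.28 and 5.60 FPKM (-0.49). No thyroid gene passed 2-fold at 5 FPKM.

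Some genes listed for other chest tissues also differed, all below the 5 FPKM filter. Which cells these reads came from was not tested. The cardiac myosin genes Myh6 and Myl2 had 4 and 171 reads and 1 and 51 reads, whereas the atrial light chain gene Myl7 had 18 and 13. The myoglobin gene Mb, a member of the skeletal muscle list, had 3 and 85. Of 6 skeletal muscle genes 4 lay above 0 and 2 below, and the 1 measured did not pass 2-fold. The summed level of that list was 35.8 and 44.3 FPKM. Of the mesothelial genes Upk3b had 29 and 252 reads, Wt1 4 and 52 and Lrrn4 33 and 92, though Msln had 179 and 187. The follicular chemokine gene Cxcl13 had 12 and 76 reads, while Fcer2a had 123 and 82, Madcam1 29 and 7 and Glycam1 4 and 1. The summed level of the heart muscle list was 2.83 and 8.70 FPKM, of the mesothelium list 6.94 and 14.8 FPKM, and of the lymph node list 3.98 and 6.04 FPKM, each far under the lists of the thymus itself. Part of each of these lists was higher where Pth and the adipocyte genes were higher, while Myl7, Fcer2a, Madcam1 and Glycam1 had fewer reads there and Msln nearly as many. Their part in those results was not tested.

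Immunoglobulin genes made up the largest share of the higher genes. Of 61 immunoglobulin segments measured 31 were higher and 4 lower, with a median of 1.01, whereas of 96 T cell receptor segments 3 were higher and 1 lower, with a median of 0.00. Over all genes measured 1.18% were higher and 0.142% lower. Segments of kappa light chains (Igkv) took 0.0206% of reads in the control and 0.0444% in the DHEA library, with 20 of 37 higher and 2 lower. Heavy chain segments (Ighv) took 0.00598% and 0.00982% of reads, with 8 of 17 higher and 1 lower. Igkv3-2 had 20 and 429 reads (2.71 and 63.9 FPKM), Igkv19-93 had 65 and 694, Igkv15-103 had 49 and 462 and Igkv4-57 had 52 and 442. Igkv4-51 had 0 and 94 reads, at least 34.5-fold higher against a floor of 3 reads, and Ighv1-58 had 2 and 73. Igkv9-120 had 48 and 256 reads, Igkv14-126 36 and 227, Igkv4-53 37 and 220, Ighv7-1 28 and 159, Igkv8-19 19 and 103 and Ighv11-2 12 and 99. These 12 segments were among the 20 largest differences. Of them, Igkv4-51, Ighv1-58, Igkv3-2, Ighv11-2, Igkv8-19 and Ighv7-1 stood under 5 FPKM in the control and passed the filter only through the DHEA library. The same held for the higher segments Ighj4, Ighv14-3, Ighv10-3, Igkv3-12, Igkj2, Igkv4-58, Ighv2-2 and Igkv4-68. The same set ran the other way for Ighv14-4, with 112 and 18 reads, Igkv4-72 with 102 and 19 and Igkv5-48 with 163 and 37. Ighv14-4, Igkv4-72 and the lower segment Ighj1 stood under 5 FPKM in the DHEA library and passed the filter only through the control. The filter thus shaped the counts and the median of the immunoglobulin segments in part, and they are no independent evidence.

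The kappa repertoire thus differed in composition as well as amount. The most used Igkv segment was Igkv1-135 in the control, with 6.65% of Igkv reads, and Igkv19-93 in the DHEA library, with 8.92%. The effective number of segments, the exponential of the Shannon entropy of their read shares, was 44.9 and 36.5 for Igkv and 23.6 and 20.7 for Ighv. For T cell receptor segments it was 55.7 and 54.0 for Trav, 15.5 and 15.5 for Trbv, 3.42 and 3.001 for Trdv and 2.87 and 2.84 for the gamma chain V segments, with Trbv13-2 the most used in both at 17.0% and 17.2% of Trbv reads. Gamma chain V segments took 0.00246% and 0.00374% of reads. No Trav or Trbv segment passed 2-fold (of 30 and 21 measured). Related segments share long stretches of sequence, and the sources used here do not say how the authors shared such reads out.

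**Figure D5:**
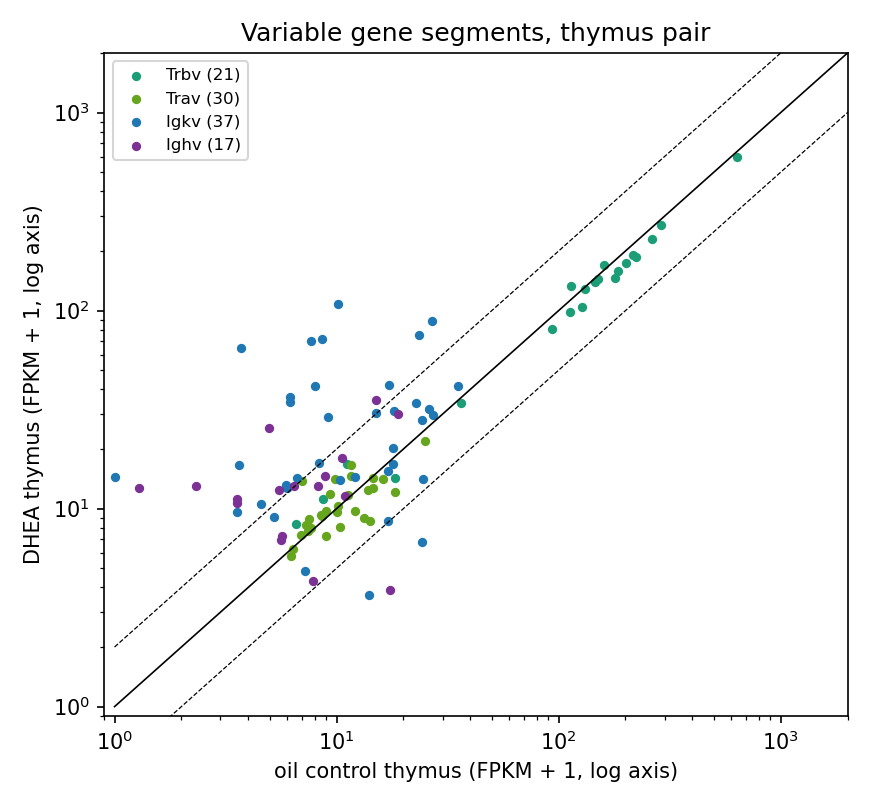
Variable gene segments with a mean of at least 5 FPKM, control thymus against DHEA thymus (FPKM + 1, log axes); the solid line marks equality and the dashed lines 2-fold, and the legend gives the number of segments. Trbv and Trav segments follow the line, whereas Igkv and Ighv segments scatter to both sides, most of them above it.

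Among the constant genes and the genes of antibody-making cells, Igkc and Jchain differed as much as the median immunoglobulin segment or more. Their log2 differences were 1.11 and 1.35, against a median of 1.01 for the segments, which the filter shaped in part. Igkc, the kappa constant gene, stood at 366 and 792 FPKM (2.16-fold, 2.08 to 2.25), and Jchain, which joins IgM and IgA, at 21.97 and 57.5 FPKM (2.62-fold), the 2 of 5 plasma cell genes measured that passed 2-fold. Ighm stood at 432 and 657 FPKM, Igha at 53.2 and 68.3 FPKM, Ighg2b at 19.98 and 29.8 FPKM and Xbp1, the plasma cell regulator gene, at 63.4 and 58.2 FPKM. B cell surface genes differed by less: Cd79a stood at 14.3 and 12.6 FPKM and Cd79b at 23.2 and 25.04 FPKM. Ms4a1, which encodes CD20, had 60 and 94 reads, and Mzb1, of plasma cells, had 33 and 23. In the spleen Igkc stood at 7796 FPKM in the control and 6482 FPKM in the DHEA library, so both thymus values were far under it.

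Of the 47 higher genes that are neither segments nor short, 22 belonged to none of the lists. The short gene Gm27549, also among the 20 largest differences, had 7 and 29 reads. Igfbp5, a binding protein of insulin-like growth factors, stood at 30.3 and 107 FPKM (3.53-fold, 3.39 to 3.66). Gpx3, the secreted glutathione peroxidase gene, stood at 43.4 and 125.6 FPKM. Cyp2e1, a cytochrome P450 gene, stood at 4.86 and 26.1 FPKM (5.38-fold), Hp, the haptoglobin gene, at 9.08 and 42.5 FPKM (4.69-fold), and Adig, named for adipogenesis, at 3.09 and 14.9 FPKM. Pck1, of glycerol and glucose synthesis, stood at 10.2 and 35.4 FPKM, Cdo1, a cysteine dioxygenase gene, at 12.3 and 40.9 FPKM, and the caveolin gene Cav1 at 4.59 and 13.8 FPKM. Hpgd, which breaks down prostaglandins, stood at 34.0 and 74.8 FPKM, and Cirbp, a cold-inducible RNA-binding protein gene, at 34.9 and 75.2 FPKM.

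The lower side was small. Ly6k, a GPI-anchored Ly6 family gene, stood at 23.3 FPKM (377 reads) in the control and 8.01 FPKM (118 reads) in the DHEA library, 2.90-fold lower (2.36 to 3.60). Klk1, a tissue kallikrein gene, stood at 9.21 and 3.97 FPKM, 2.32-fold lower (1.77 to 3.07). Ly6k was also lower in the DHEA spleen, with 158 and 17 reads. Klk1 was lower in the DHEA spleen, with 325 and 147 reads, and in the DHEA intestine, with 846 and 332. The DHEA ovary had more Klk1, with 10 and 156 reads, as did the DHEA uterus, with 14 and 94. The other 9 lower genes were 5 receptor segments and 4 genes shorter than 200 bases. Mir363 had 30 and 7 reads, Mir1291 20 and 6, Gm23318 20 and 8, Mir7656 9 and 3 and the segment Ighj1 9 and 2, and Trdd1, 11 bases long, had 3 and 0 reads, at the floor in both. Of the 11 lower genes 6, and of the 91 higher genes 14, rested on under 50 reads in the pair.

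Sex steroid receptor genes named here were low. The oestrogen receptor gene Esr1 stood at 0.535 and 0.387 FPKM (143 and 94 reads) and the progesterone receptor gene Pgr at 0.275 and 0.981 FPKM (46 and 149 reads). Esr2 had 0 and 1 reads, Gper1 12 and 16, and the mineralocorticoid receptor gene Nr3c2 41 and 78. The glucocorticoid receptor gene Nr3c1 was the only member measured, at 13.8 and 19.1 FPKM (0.44). Glucocorticoid target genes had 1 of 10 higher (Pdk4) and a median of 0.22, with Fkbp5 at 65.5 and 53.4 FPKM and Tsc22d3 at 34.8 and 43.1 FPKM on opposite sides of 0. Enzymes that convert DHEA and sex steroids had 0 of 6 past 2-fold (median 0.17), with Hsd17b12 at 22.5 and 28.9 FPKM, while Cyp19a1, the aromatase gene, had 0 and 3 reads.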

How the data were processed

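RNA of 10 tissues was sequenced in bulk. The authors deposited FPKM values per gene symbol and a table of log2 fold values per tissue; per the submitters' processing notes reads were aligned with HISAT2 2.0.5 to mm39 (hg38 is named too). The sources used here do not give the counter, the strand setting or how the log2 fold table was made.

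In 24825 of 24826 rows the deposited FPKM values divide into whole reads (relative tolerance 1e-11), which gave reads per gene, checked on simulated data; without replicates no count test was run. Depth limits low genes: exact (Clopper-Pearson) 95% intervals of folds cover counting error only, and a fold against 0 reads uses a floor of 3 reads. Symbols that occur more than once (28) were left out. Calls needed a 2-fold difference with 1 FPKM added and a pair mean of at least 5 FPKM; list medians used members of at least 1 FPKM. Calculations used Python 3.11.15 with pandas 2.3.3 and SciPy 1.17.1. Columns were matched to samples by tissue, with C and D in their names read as control and DHEA; all 20 matched.

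The members and the 46 gene lists were chosen with earlier results of these data known. Genes named were drawn from the 20 largest differences each way, list members past 2-fold, the 4 most abundant members of a list, Cfd, Ucp1, Pth, Rag1 and Cd4, and the members of the gland, steroid receptor and fat lists, some of which are not reported here; further members serve as examples. Alternatives were other pseudocounts, filters and scalings and the authors' deposited log2 values.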

Additional observations from a re-analysis of the deposited data

Results flagged for a closer look

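Of 6 lists compared across tissues (thymocyte, epithelial and adipocyte lists, with 5 or more measured genes), 2 drew attention because at least 50% of the measured genes were 2-fold higher in thymus and at least 50% were 2-fold lower in another tissue. Each tissue has 1 library a side, so the differences were not tested. The shared adipocyte list had a median log2 difference, DHEA against control, of 1.12 in thymus and -1.95 in uterus. The brown adipocyte list had a median of 1.08 in thymus and -0.30 in brain, where 4 of 8 measured genes were at least 2-fold lower and Ucp1 had no reads in either library. Medians of opposite sign alone were commoner. The brown adipocyte median was -0.45 in uterus, although 3 of 4 measured genes there were at least 2-fold higher and 0 lower. The mitochondrially encoded list had 0.33 in thymus and -2.16 in uterus.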

How the results depend on the processing

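The 91 higher and 11 lower genes became 57 and 6 with a pseudocount of 5 FPKM, 195 and 37 with a filter at 1 FPKM, 52 and 3 with a filter at 10 FPKM, 239 and 63 without a filter, and 42 and 3 by the authors' deposited log2 fold values (7053 of the genes). In alternatives chosen after seeing the data, 47 and 2 were left without receptor segments and genes under 200 bases, and 5 lower genes had at least 50 reads in the pair; other filters test fewer or more genes by construction, and for the pseudocount the cause was not tested. The brown adipocyte median of 1.08 became 0.51 with a pseudocount of 5 FPKM and 0.49 without a filter; the cause was not tested. The shared adipocyte median ranged from 0.83 to 1.28, the double-positive one from -0.01 to 0.08, the mature single-positive one from -0.11 to 0.01 and the cortical one from -0.15 to -0.06 over the alternatives run. The medullary one ranged from -0.13 to 0.00, leaving out the authors' deposited table, which held 1 of its genes (0.13). Of 51 named genes past 2-fold, 39 stayed past 2-fold with a pseudocount of 5 FPKM. All 51 kept their direction under every pseudocount and scaling run, which was fixed in advance. A pseudocount cannot change a direction, and the scalings moved ratios too little to turn a 2-fold difference. The T cell receptor centring moved all ratios by 0.07 and the other scalings by less. No paired analysis was possible because each group has 1 library, and no library could be left out.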

Other observations

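Antigen presentation genes were close between the thymus libraries, though counts of 0 past 2-fold lie near the 1.32% over all genes measured. MHC class II genes had 0 of 8 past 2-fold and a median of 0.09, with the invariant chain gene Cd74 at 768 and 806 FPKM (control, then DHEA) and H2-Ab1 at 270 and 293 FPKM. MHC class I genes had 0 of 11 past 2-fold and a median of -0.08, with B2m at 925 and 906 FPKM. None of 4 dendritic cell genes measured passed 2-fold (median 0.05), and Ccl22 stood at 32.5 and 31.7 FPKM. Ribosomal protein genes had 0 of 25 past 2-fold, with a median of -0.02 whose sign turned with scaling.

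Immediate early genes had 0 of 7 past 2-fold and a median of -0.14, with Btg2 at 344 and 261 FPKM and Arc at 6.83 and 3.99 FPKM. Neutrophil granule genes ran to both sides: S100a9 stood at 18.7 and 26.6 FPKM, and Ngp at 12.1 and 8.01 FPKM. Smooth muscle genes did so too, with Acta2 at 13.2 and 9.02 FPKM and Rgs5 at 6.66 and 7.69 FPKM. Circadian clock genes had 0 of 4 measured past 2-fold, with Cry1 at 37.6 and 30.7 FPKM.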
